A study of Mus musculus with 6 samples.

Results

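The genes described here are cyclins, cyclin-dependent kinases (CDKs) and an activating phosphatase, grouped as genes of the meiotic divisions, though some act in meiotic prophase. They are the A-type cyclins Ccna1 and Ccna2, the B-type cyclins Ccnb1, Ccnb2 and Ccnb3, the E-type cyclins Ccne1 and Ccne2, the kinases Cdk1 and Cdk2, and the phosphatase Cdc25c. They were chosen by gene symbol from the deposited table, which held all 10 of them among 53700 genes, and all 10 had enough counts to be among the 16829 genes tested. RNA had been sequenced from primary spermatocytes, isolated from dissociated testes of C57BL/6 mice aged 8 weeks by flow cytometry of Hoechst-stained cells. The libraries formed 2 groups of 3, one from circSry KO mice, which lack the circular RNA made from Sry, and one from wild-type (WT) mice of the same strain and age. Gene-level counts do not measure the circular RNA itself, so the knockout was not checked here. The labels do not say how it was made, nor whether the 3 libraries of a group are 3 animals. The p-values therefore cover the spread among these 6 libraries, which may be technical.

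A CDK is active only while bound to a cyclin, and cyclins are made and destroyed in each division. CDC25C removes the phosphates that hold CDK1 inactive, and cyclin B with CDK1 then carries the cell into division. In male mice, cyclin A1 is restricted to germ cells and is needed for spermatocytes to leave prophase, and CDK2 and the E-type cyclins act at telomeres and in chromosome pairing during prophase. Cyclin B3 is made early in meiotic prophase of mouse spermatocytes and is low by pachytene.

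No gene of the family passed the adjusted threshold. The fitted level of Ccnb1 was 1.89-fold higher in circSry KO, with no overlap between the groups in CPM. The fitted levels of Ccnb3, Cdk2 and Ccne2 were 4.30-fold, 2.41-fold and 2.32-fold lower. Ccna2, Cdk1 and Ccne1 had fitted log2 fold changes between -0.22 and 0.21. With edgeR 0 of the 10 passed an adjusted p of 0.05, as did 0% of all genes tested. At an unadjusted p below 0.05 edgeR found 1 of the 10 higher (Ccnb1) and 2 lower (Ccnb3 and Cdk2), against 13.6% of all genes tested higher and 9.84% lower. DESeq2 called 1 of the 10, Ccnb3, lower, against 3.70% of genes called lower and 5.10% called higher (8.80% together), and limma-voom called 0. The median log2 fold change of the 10 was 0.13, beside 0.12 for all genes tested.

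The libraries held 8191397 to 9294723 estimated read counts in circSry KO and 7400360 to 8422943 in WT. circSry KO replicate 3 stood apart from its own group. Across genes, the correlation of its log2 CPM was 0.871 and 0.767 with replicates 1 and 2 of its group, and 0.919, 0.835 and 0.865 with WT replicates 1, 2 and 3. In that library the shortest genes by effective length (the lowest 20%) lay at a median of 1.23 above the WT mean on the log2 scale, and the longest 20% at -0.87. The same medians were 0.66 and -0.42 in circSry KO replicate 1, 0.10 and 0.10 in circSry KO replicate 2, and 0.32 and -0.33 in WT replicate 1. Without it edgeR called 34.7% of genes, 18.5% higher and 16.2% lower, so a call in that fit says little of a single gene. Dropping a library because it stands apart narrows the spread, and p-values of that fit are too small for it. In that fit 2 of the 10 were called higher (Ccnb1 and Cdc25c) and 3 lower (Ccnb3, Ccne2 and Cdk2).

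Markers of other cells also differed between the groups, and levels in bulk RNA cannot tell fewer cells of a type from less RNA per cell. Levels are given as CPM, read counts as a proportion of the library total scaled by TMM factors. Summed over 10 markers each (8 for Leydig cells), elongating spermatid genes stood at 9962 to 18581 CPM in circSry KO and 3320 to 6300 CPM in WT, and 9 of the 10 were higher by an unadjusted p below 0.05. Round spermatid genes stood at 2325 to 2736 CPM in circSry KO and 867 to 1480 CPM in WT, with 8 of 10 higher at that p. Pachytene and diplotene markers stood at 7709, 6505 and 10781 CPM in circSry KO replicates 1, 2 and 3 and at 8088 to 10398 CPM in WT. Markers listed for the labelled cell type were thus found in all 6 libraries, which does not measure the share of spermatocytes. Their log2 fold changes were positive for 5 and negative for 5, from -1.91 to 1.22, so the sum covers changes in both directions. At that p 1 of the 10 was higher and 3 were lower. Preleptotene to zygotene markers stood at 411, 404 and 1306 CPM in circSry KO replicates 1, 2 and 3 and at 811 to 1013 CPM in WT. At that p 3 of these 10 were lower and 0 higher. Macrophage markers stood at 661, 334 and 76.0 CPM in circSry KO replicates 1, 2 and 3 and at 48.6 to 109 CPM in WT. Sertoli cell markers stood at 205 to 351 CPM in circSry KO and 69.5 to 97.1 CPM in WT, with Sox9 and Rhox5 at 0 in at least 1 library. At that p 7 of 9 tested macrophage markers and 6 of 7 tested Sertoli markers were higher, and 7 of 8 Leydig markers were lower. Of the 10 spermatogonial markers 3 were higher at that p, and of the 10 endothelial and peritubular markers 2. Beside all these counts, 13.6% of all genes tested were higher at that p and 9.84% lower. Leydig cell markers stood at 284, 237 and 612 CPM in circSry KO replicates 1, 2 and 3 and at 586 to 873 CPM in WT. Endothelial and peritubular markers stood at 635, 735 and 59.2 CPM in the same circSry KO libraries and at 154 to 229 CPM in WT. Spermatogonial markers stood at 768 to 1066 CPM in circSry KO and 748 to 1312 CPM in WT. No marker of the lists other than the Sertoli list was at 0 in any library. The part of these cells in the results below was not tested.

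Levels of different genes were compared in TPM, which allows for transcript length. In circSry KO the order of means was Ccna1, Ccnb2, Ccnb1, Cdk1, Cdk2, Cdc25c, Ccne2, Ccna2, Ccne1 and Ccnb3, running down from 212 ± 72.8 TPM for Ccna1 to 0.443 ± 0.219 TPM for Ccnb3 (SD, n = 3). In WT it was Ccna1, Ccnb2, Cdk2, Ccnb1, Cdk1, Ccne2, Cdc25c, Ccna2, Ccne1 and Ccnb3, running down from 215 ± 34.2 TPM for Ccna1 to 3.04 ± 1.76 TPM for Ccnb3 (SD, n = 3). In circSry KO neighbours in this order overlapped in their library values except at the steps from Ccnb1 to Cdk1, from Cdk1 to Cdk2 and from Ccne1 to Ccnb3. In WT the steps without overlap were those from Ccnb2 to Cdk2, from Cdk1 to Ccne2, from Ccne2 to Cdc25c and from Ccne1 to Ccnb3. Cdk2, between Ccnb2 and Ccnb1 in WT at 102 ± 51.7 TPM, came after Cdk1 in circSry KO at 25.2 ± 5.19 TPM (SD, n = 3 each). Ccna1 and Ccnb2 headed the family in both groups.

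**Figure D1:**
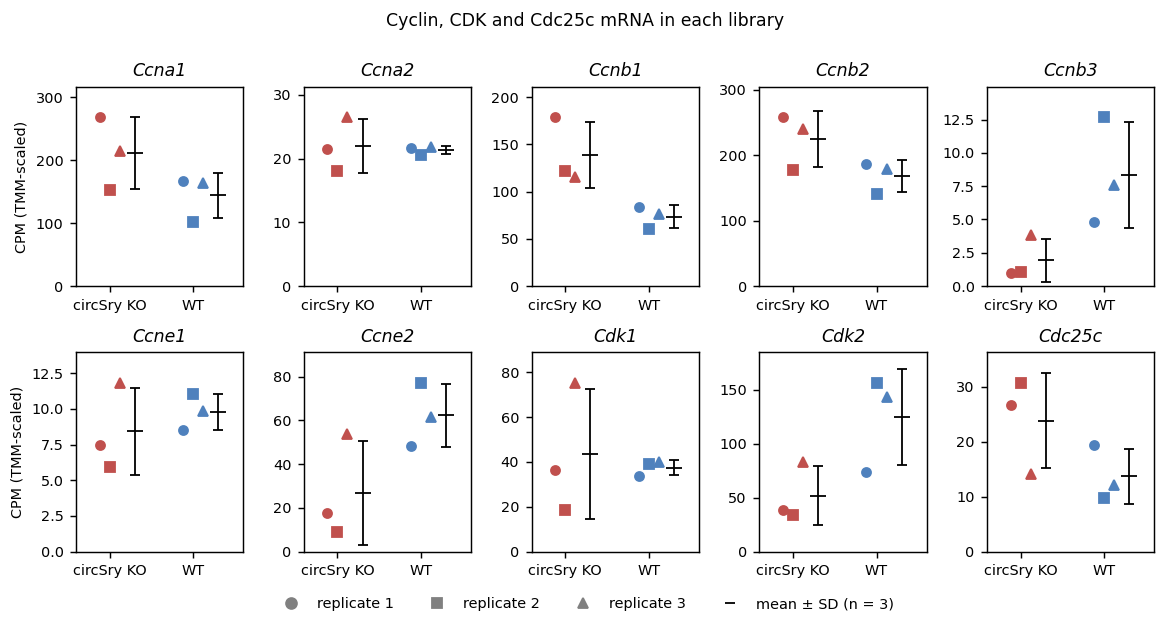
Level of each of the 10 genes in every library, as TMM-scaled CPM (y axis, each panel from 0), for circSry KO and WT. Symbols mark replicates 1 to 3 and bars the mean ± SD (n = 3). Ccnb1 lay at 116 to 179 CPM in circSry KO, above all WT libraries, and Ccnb3 at 0.990 to 3.81 CPM, below all WT libraries.

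Neither A-type cyclin passed the test, and both overlapped between the groups. Ccna1, on the minus strand at chr3:55045469-55055501 (GRCm38), stood at 268, 153 and 214 CPM in circSry KO replicates 1, 2 and 3, and at 166, 102 and 163 CPM in WT replicates 1, 2 and 3. The groups overlapped, since circSry KO replicate 2 lay below WT replicates 1 and 3. The log2 fold change of Ccna1 was 0.56 ± 0.35 (SE, edgeR adjusted p = 0.359), and on the TPM scale its sign turned. Ccna2, the A-type cyclin of dividing somatic cells, lies on the minus strand at chr3:36564865-36572150. Its level was 21.4, 18.1 and 26.4 CPM in the circSry KO libraries, against 21.6, 20.6 and 21.7 CPM in WT, a log2 fold change of 0.05 ± 0.31 (SE, edgeR adjusted p = 0.943) whose sign turned on the TPM scale. All WT values of Ccna2 lay within the range of circSry KO.

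Among B-type cyclins Ccnb1 was higher and Ccnb3 lower in all 3 circSry KO libraries. Ccnb1 encodes cyclin B1, the main partner of CDK1, and lies on the minus strand at chr13:100778650-100786570. It stood at 179, 122 and 116 CPM in circSry KO replicates 1, 2 and 3, against 84.3, 60.6 and 76.2 CPM in WT, or 139 ± 34.6 and 73.7 ± 12.01 CPM (SD, n = 3 each). The lowest circSry KO library lay above the highest WT library in CPM, a separation in this direction that 14.1% of genes tested showed. Its log2 fold change was 0.92 ± 0.32 (SE, edgeR adjusted p = 0.142), and 0.99 ± 0.30 without circSry KO replicate 3 (SE, edgeR adjusted p = 0.0236). Adjusted p over the alternatives ran from 0.0236 to 0.482. In TPM the groups overlapped, with 180, 160 and 72.1 TPM in circSry KO replicates 1, 2 and 3, against 74.7, 68.9 and 82.2 TPM in WT. Replicate 3 alone of the circSry KO libraries lay within the WT range on that scale. The summed spermatid and Sertoli markers above were likewise higher in all 3 circSry KO libraries, and their part in the level of Ccnb1 was not tested. A pseudogene, Ccnb1-ps, held 2 to 6.01 estimated counts in circSry KO and 0 to 6 in WT, so a few reads may be split between the copies.

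Ccnb2, a second CDK1 partner that mice can do without, lies on the minus strand at chr9:70407692-70421547. Its levels were 258, 177 and 240 CPM in circSry KO, against 186, 141 and 179 CPM in WT. The log2 fold change of 0.42 ± 0.30 (SE, edgeR adjusted p = 0.43) was within the spread between replicates and turned its sign on the TPM scale. The groups overlapped through circSry KO replicate 2. Its pseudogene Ccnb2-ps held 22 to 33 estimated counts in circSry KO and 19 to 23 in WT.

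Ccnb3, X-linked and on the minus strand at chrX:6979652-7041619, was the least abundant of the 10. It had 9, 9 and 30 estimated reads in circSry KO replicates 1, 2 and 3, and 35, 109 and 65 reads in WT. By the exact Poisson 95% interval, which covers counting error only, 9 reads allow 4.12 to 17.1, and the 35 reads of WT replicate 1 allow 24.4 to 48.7. In CPM it stood at 0.990, 1.03 and 3.81 in circSry KO, against 4.79, 12.7 and 7.55 in WT. All circSry KO libraries lay below all WT libraries, as for 14.4% of genes tested. Ccnb1 and Ccnb3 were the 2 of the 10 without overlap in CPM, where 28.4% of all genes tested had none in either direction. Ccnb3 had a log2 fold change of -2.10 ± 0.66 (SE, edgeR adjusted p = 0.122; 0.79% of genes tested had a lower one), and DESeq2 called it at an adjusted p of 0.032. Without circSry KO replicate 3 it was -3.07 ± 0.54 (SE, edgeR adjusted p = 0.00194), and across the alternatives adjusted p ran from 0.00194 to 0.458. With an offset for transcript length it was -1.51 ± 0.72 (SE, edgeR adjusted p = 0.268). The median effective length of Ccnb3, 4234 bases, was above that of 88.1% of genes tested. The part of the length trend in its fold change was not tested. The summed preleptotene to zygotene, pachytene and diplotene, and Leydig markers above were also lowest in circSry KO replicates 1 and 2. Their part in the level of Ccnb3 was not tested.

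Promoter windows of 300 bases around the annotated start, from RefSeq (GRCm38.p6), were at hand for 7 of the 10. Those of the B-type cyclins and Cdk2 are shown so that their motifs can be compared. Capitals mark, on either strand, the CCAAT box bound by NF-Y (CCAAT), the CHR element of cell cycle genes (TTTGAA or TTCGAA), E2F sites (TTCCCGC or TTTCGCG) and MYB sites (TAACNG). Ccnb1 is at chr13:100786437-100786736, Ccnb2 at chr9:70421505-70421804, Ccnb3 at chrX:7041570-7041869 and Cdk2 at chr10:128705002-128705301, all read on the minus strand.
Ccnb1: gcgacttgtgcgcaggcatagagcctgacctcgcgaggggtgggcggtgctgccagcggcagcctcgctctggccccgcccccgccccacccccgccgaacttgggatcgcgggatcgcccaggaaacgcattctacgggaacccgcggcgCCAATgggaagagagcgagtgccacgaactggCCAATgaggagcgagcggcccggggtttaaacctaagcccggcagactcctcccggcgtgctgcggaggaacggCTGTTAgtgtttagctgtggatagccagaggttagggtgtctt
Ccnb2: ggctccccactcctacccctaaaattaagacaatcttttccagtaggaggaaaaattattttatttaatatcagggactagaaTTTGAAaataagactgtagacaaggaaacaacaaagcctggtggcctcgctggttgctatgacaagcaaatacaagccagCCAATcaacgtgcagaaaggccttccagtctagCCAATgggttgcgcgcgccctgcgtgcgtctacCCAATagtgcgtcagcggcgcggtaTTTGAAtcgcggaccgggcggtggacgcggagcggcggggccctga
Ccnb3: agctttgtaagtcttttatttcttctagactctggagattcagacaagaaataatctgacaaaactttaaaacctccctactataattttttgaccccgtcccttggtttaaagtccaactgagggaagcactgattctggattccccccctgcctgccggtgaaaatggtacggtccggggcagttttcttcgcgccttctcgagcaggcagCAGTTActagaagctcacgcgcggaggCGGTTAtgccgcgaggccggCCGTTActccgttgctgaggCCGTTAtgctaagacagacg
Cdk2: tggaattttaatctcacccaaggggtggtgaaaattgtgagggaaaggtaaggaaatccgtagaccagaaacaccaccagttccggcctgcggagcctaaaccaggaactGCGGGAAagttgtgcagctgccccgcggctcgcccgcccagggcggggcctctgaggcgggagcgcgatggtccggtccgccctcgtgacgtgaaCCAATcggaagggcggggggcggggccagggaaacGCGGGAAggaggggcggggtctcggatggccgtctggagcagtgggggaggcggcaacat
The Ccnb2 window held 3 CCAAT boxes and 2 CHR elements, and the Ccnb1 window 2 CCAAT boxes and 1 MYB site. The Ccnb3 window held 4 MYB sites and none of the other motifs, and the Cdk2 window 1 CCAAT box and 2 E2F sites. The window of Cdk1, the partner of the B-type cyclins, is not shown and held 3 CCAAT boxes, 2 CHR elements and 1 E2F site. Over the 7 windows the CCAAT box was in 5, the CHR element in 2, the E2F site in 2 and the MYB site in 2, and 0 sites of different motifs overlapped. Of 32851 windows of the same length, 37.4% held a CCAAT box, 19.2% a CHR element, 5.38% an E2F site and 23.3% a MYB site. These are matches of letters, not measured binding.

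The E-type cyclins bind CDK2 and are best known for starting DNA replication. Ccne1, on the minus strand at chr7:38097984-38107534, stood at 7.48, 5.96 and 11.8 CPM in circSry KO replicates 1, 2 and 3, against 8.49, 11.04 and 9.88 CPM in WT. The WT values lay within the circSry KO range, and the log2 fold change was -0.22 ± 0.39 (SE, edgeR adjusted p = 0.768). Ccne2, on the plus strand at chr4:11191351-11204779, stood at 17.8, 8.94 and 53.9 CPM in circSry KO, against 48.2, 77.1 and 61.5 CPM in WT. circSry KO replicates 1 and 2 lay below every WT library, while replicate 3 lay within the WT range. The summed preleptotene to zygotene, pachytene and diplotene, and Leydig markers above were likewise below WT in replicates 1 and 2 and not in replicate 3. Their part in the result was not tested. The log2 fold change was -1.21 ± 0.61 (SE, edgeR adjusted p = 0.263). Without circSry KO replicate 3 it was -2.26 ± 0.38 (SE, edgeR adjusted p = 0.00165), where adjusted p over the alternatives ran from 0.00165 to 0.605. In TPM replicate 3, at 15.4, also lay below the lowest WT value of 24.1.

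Of the kinases, Cdk2 had a lower mean in circSry KO, and Cdk1 took either sign depending on the scale. Cdk2, on the minus strand at chr10:128697939-128705031, stood at 38.1, 33.7 and 83.0 CPM in circSry KO replicates 1, 2 and 3, against 74.0, 156 and 144 CPM in WT. Replicate 3 of circSry KO lay above WT replicate 1 and below the other two. For Cdk2 the log2 fold change was -1.27 ± 0.46 (SE, edgeR adjusted p = 0.155), and -1.84 ± 0.36 without circSry KO replicate 3 (SE, edgeR adjusted p = 0.00354), with values of 0.00354 to 0.496 over the alternatives. In TPM it stood at 21.5, 22.9 and 31.1 in circSry KO, against 44.4, 144 and 119 in WT, with no overlap. As for Ccne2, its level was lowest in circSry KO replicates 1 and 2. The summed preleptotene to zygotene, pachytene and diplotene, and Leydig markers above were also lowest there. Their part in the level of Cdk2 was not tested.

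Cdk1, the kinase that cyclin B activates, lies on the minus strand at chr10:69335146-69352938. It stood at 36.5, 18.7 and 75.3 CPM in circSry KO replicates 1, 2 and 3, against 33.7, 39.03 and 39.7 CPM in WT. The circSry KO libraries lay on both sides of WT. The Cdk1 log2 fold change of 0.21 ± 0.48 (SE, edgeR adjusted p = 0.818) was -0.38 with an offset for transcript length and -0.48 without circSry KO replicate 3. In TPM it stood at 48.2, 33.9 and 50.3 in circSry KO, below the 58.9, 78.8 and 79.8 of WT. On that scale 4 of the 10 (Ccnb3, Ccne2, Cdk1 and Cdk2) were lower without overlap and 0 were higher, against 21.7% of all genes tested lower and 5.81% higher (27.5% together).

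Cdc25c, on the minus strand at chr18:34732993-34751533, stood at 26.6, 30.7 and 14.1 CPM in circSry KO replicates 1, 2 and 3, against 19.3, 9.76 and 12.1 CPM in WT. Replicates 1 and 2 of circSry KO lay above every WT library and replicate 3 within the WT range. Cdc25c had a log2 fold change of 0.80 ± 0.43 (SE, edgeR adjusted p = 0.291), and 1.02 ± 0.34 without circSry KO replicate 3 (SE, edgeR adjusted p = 0.0373), with values of 0.0373 to 0.871 over the alternatives. In TPM replicate 3, at 6.24, lay below all WT libraries. The summed spermatid and Sertoli markers above were higher in circSry KO as well, replicate 3 included. The summed macrophage markers and endothelial and peritubular markers were, like Cdc25c, above WT in replicates 1 and 2 and not in replicate 3. The part of any of these in the level of Cdc25c was not tested.

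**Figure D2:**
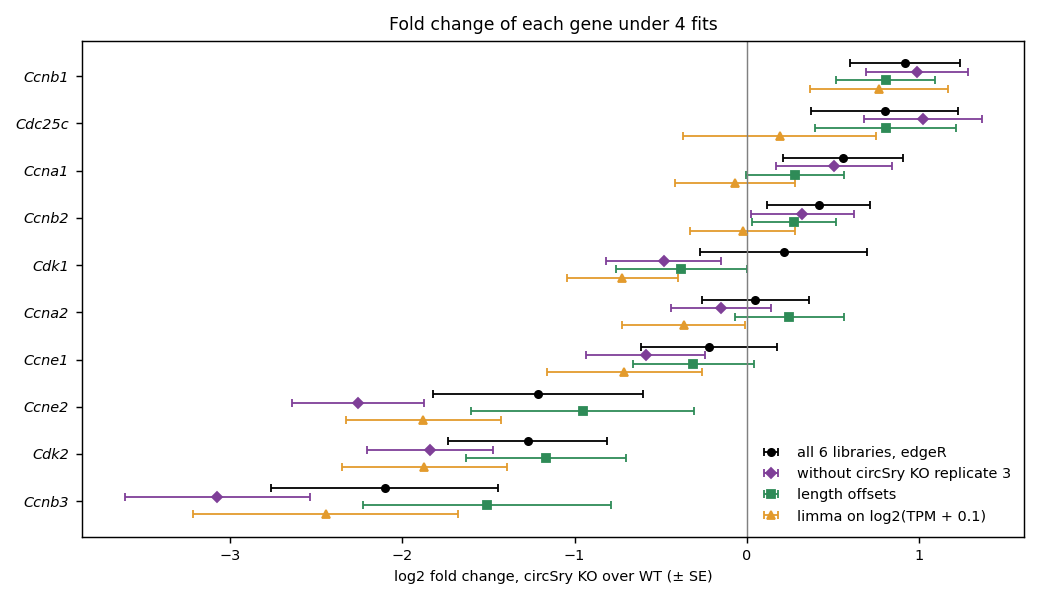
Log2 fold change of each gene, circSry KO over WT, with its SE (x axis) under 4 fits. Ccnb1 and Cdc25c stayed positive and Ccnb3, Cdk2, Ccne2 and Ccne1 stayed negative in these 4, while Cdk1 ran from -0.72 to 0.21 and Ccna2, Ccna1 and Ccnb2 also had either sign.

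Ratios of related genes within a library do not depend on its scaling factor. In TPM they do depend on the effective length of each gene, which for Ccnb1 averaged 1190 bases in circSry KO and 1443 in WT. Median lengths over the libraries were 834 bases for Cdk1 and 2067 for Cdk2, and 4234 for Ccnb3 and 1320 for Ccnb1. The part of length in these ratios was not tested. Cdk1 was at 2.24, 1.48 and 1.62 times the TPM of Cdk2 in circSry KO replicates 1, 2 and 3, against 1.33, 0.548 and 0.671 times in WT. The groups did not overlap, and the difference was 1.15 on the scale of log2(TPM + 0.1). Ccnb1 was at 0.770, 0.773 and 0.509 of Ccnb2 in circSry KO, against 0.400, 0.378 and 0.386 in WT. This ratio was nearly constant in WT, and all circSry KO libraries lay above it, with a log2 difference of 0.79. Ccnb3 over Ccnb1 was lower in all 3 circSry KO libraries, with a log2 difference of -3.21. With Ccnb3 at 0.27 to 0.69 TPM in circSry KO, the size of this difference depends on the pseudocount, and it was -2.16 with log2(TPM + 1). Ccne1 over Ccne2 was 0.636, 1.08 and 0.332 in circSry KO and 0.344, 0.264 and 0.221 in WT, which overlapped, and Ccna1 over Ccna2 overlapped as well. With 3 libraries against 3 the exact two-sided permutation test cannot go below p = 0.1, which the ratios Cdk1 over Cdk2, Ccnb1 over Ccnb2 and Ccnb3 over Ccnb1 reached (adjusted over the 5 ratios, p = 0.167 by exact permutation). Ccne1 over Ccne2 had an exact permutation p of 0.2 and Ccna1 over Ccna2 of 0.5. How often the ratios of other gene pairs separate the groups was not computed. Of single genes tested, 27.5% had no overlap in TPM in either direction. Ccnb1 is part of both Ccnb1 over Ccnb2 and Ccnb3 over Ccnb1, so these ratios are not independent of each other or of the levels above.

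**Figure D3:**
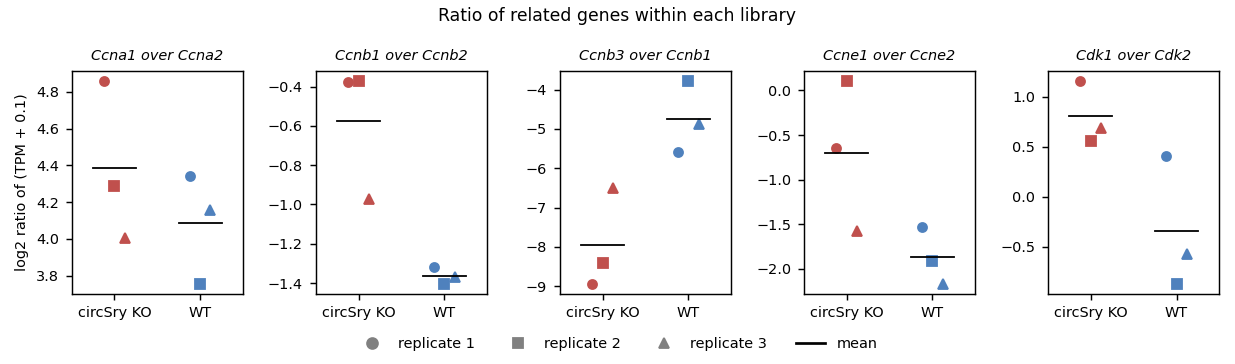
Log2 ratio of (TPM + 0.1) of 5 pairs of related genes in each library (y axis, not from 0), for circSry KO and WT, with symbols for replicates 1 to 3 and a line at the mean. The circSry KO and WT libraries do not overlap for Ccnb1 over Ccnb2, Ccnb3 over Ccnb1 and Cdk1 over Cdk2. The share of other gene pairs without overlap was not computed, and for single genes tested it was 27.5% in TPM.

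The deposited counts and FPKM also imply the effective length used for a gene in a library, an average over its transcripts weighted by their estimated share, and this was looked at after the other values had been seen. For Ccnb1 it was 1167, 1169 and 1234 bases in circSry KO replicates 1, 2 and 3, against 1460, 1462 and 1407 bases in WT. Ccnb1 was therefore assigned on average to shorter transcripts in every circSry KO library, replicate 3 included, at 1190.1 ± 37.7 bases in circSry KO and 1443 ± 31.5 bases in WT (SD, n = 3 each). GENCODE M21 lists coding Ccnb1 transcripts of 2489, 2140 and 1182 bases. Ccna1 went the other way, with 1108, 1104 and 1178 bases in circSry KO, against 995, 939 and 995 bases in WT. Cdk1 had 892, 845 and 1149 bases in circSry KO, against 740, 823 and 756 bases in WT, and its coding transcripts in GENCODE M21 have 4375, 1253 and 695 bases. Ccnb2, with 1 annotated transcript, differed by 1.302%, from 1296 to 1307 bases in circSry KO and 1272 to 1294 bases in WT. Across 15139 genes with a length in all 6 libraries 29.7% had groups without overlap, and 8.22% had means over 10% apart as well, 3.61% longer and 4.61% shorter. Of the 10 genes 2 were longer (Ccna1 and Cdk1) and 1 shorter (Ccnb1) by that measure. The exact two-sided permutation p was 0.1 for each of Ccna1, Ccnb1, Ccnb2 and Cdk1, the smallest it can be (adjusted over the 10 genes, 0.25). Within circSry KO, replicate 2 had shorter lengths than replicates 1 and 3 for Ccne1 (971 against 1764 and 1768 bases) and Ccne2 (1571 against 2672 and 2680 bases). No source used here gives the annotation behind the counts, so the transcripts could not be named.

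**Figure D4:**
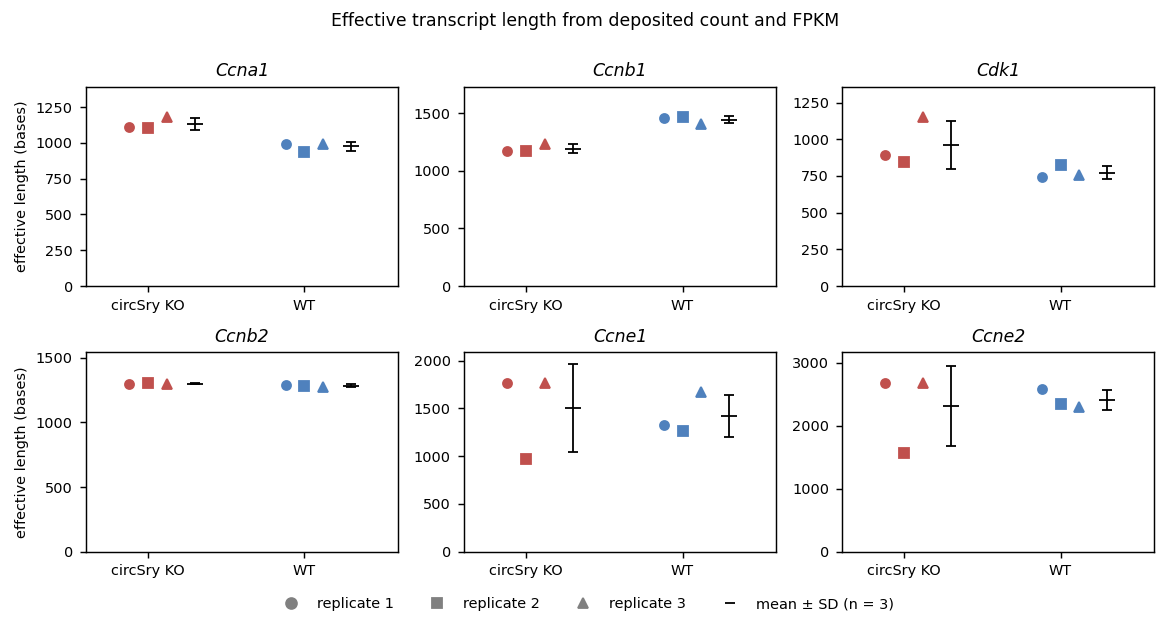
Effective length in bases (y axis from 0) of 6 genes in each library of circSry KO and WT, with symbols for replicates 1 to 3 and mean ± SD (n = 3). Ccnb1 is shorter in all circSry KO libraries and Ccna1 and Cdk1 are longer, while Ccnb2, with 1 annotated transcript, is nearly level.

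The study's title names miR-138-5p, a microRNA that circSry is said there to sponge, and a microRNA pairs with messenger RNAs mainly through its seed. Its mature sequence and the matches to its seed in the 3' untranslated regions of the 10 genes are shown, with the seed (bases 2 to 8) or the match in capitals. The microRNA is from RefSeq (GRCm38.p6) and the sites from GENCODE M21 (GRCm38), in the transcript with the longest 3' untranslated region.
mmu-miR-138-5p: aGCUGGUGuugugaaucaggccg
Cdk2: taacccggcttcCACCAGCttcttcccct
Ccne1: tagggtcaagtaCACCAGCcacctccaga
Of the 10 genes 2 held a match, Cdk2 at chr10:128698900-128698906 and Ccne1 at chr7:38098306-38098312, against 13.9% of the 13916 tested genes with such a region. Cdk2 had a log2 fold change of -1.27 and Ccne1 of -0.22, both given above, neither past the adjusted threshold. Ccnb3 and Ccne2, also lower, held 0 matches. A match of letters is no measured site.

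Genes whose pattern over the 6 libraries was most like that of a member were ranked by the root mean square difference of centred log2 CPM, among genes of at least 5 CPM. Nearest to Ccnb3 were Ccp110 at 0.16 and Piwil2, a PIWI protein of the piRNA pathway, at 0.22. Nearest to Ccne2 were Nsl1 at 0.11 and Pcbp1 at 0.13, and nearest to Cdk2 were Smarcd1 at 0.08 and Sav1 at 0.09. Ccnb1 had Oser1 at 0.07 and Hoxd8 at 0.08, and Ccnb2 had Cfap36 at 0.04 and Gid8 at 0.06. For Ccna1 they were Gm15908 at 0.05 and Epyc at 0.08, and for Ccne1 Dnajc14 and Ptcd3, both at 0.07. Cdk1 had Rpl7a at 0.08 and Rnf7 at 0.10, and Cdc25c had Zfp819 at 0.08 and Ccdc27 at 0.10. No member was among the nearest 2 genes of another member. With 12233 candidates and 6 libraries close matches arise in any case.

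The wider pathway was read from 5 lists of other cell cycle genes. Of 23 transcription factor genes tested, 6 were lower and 0 were higher by an unadjusted p under 0.05, against 9.84% of all genes tested lower and 13.6% higher. Their median log2 fold change was -0.41 beside 0.12 for all genes. Tfdp1, the dimer partner of E2F, stood at 35.3 ± 12.7 CPM in circSry KO and 100.1 ± 29.0 CPM in WT (SD, n = 3 each). Its log2 fold change was -1.50 ± 0.39 (SE, edgeR adjusted p = 0.0951). Lin9, of the MuvB complex, had 16.9 ± 3.83 CPM in circSry KO and 42.7 ± 11.02 CPM in WT, and the pocket protein gene Rbl1 had 19.5 ± 3.04 and 55.8 ± 25.4 CPM in the same groups (SD, n = 3 each). For these 3 genes every circSry KO library lay below every WT library, as for 14.4% of all genes tested. They were named for having the smallest p of the list, which favours genes without overlap. Foxm1, an activator of Ccnb1 in dividing cells, overlapped between the groups, at 194 ± 95.9 CPM in circSry KO and 165 ± 29.9 CPM in WT (SD, n = 3 each). Rbbp4, the most abundant of the list, had a log2 fold change of -0.50 ± 0.39 (SE). edgeR passed 0 of the 23 after adjustment, DESeq2 called 3 lower (3.70% of all genes), and without circSry KO replicate 3 edgeR called 1 higher and 8 lower, beside its 18.5% and 16.2% of all genes.

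Genes that activate CDK1 and CDK2 or destroy cyclins had 3 of 34 higher and 1 lower by that unadjusted p, beside the same 13.6% and 9.84% of all genes, and a median of -0.10. Without circSry KO replicate 3 edgeR called 3 of them higher and 10 lower, where 18.5% of all genes were called higher and 16.2% lower. Ube2c, which hands ubiquitin to the anaphase-promoting complex for cyclin destruction, had the smallest p of the list. It stood at 45.6 ± 10.1 CPM in circSry KO and 19.7 ± 3.47 CPM in WT (SD, n = 3 each). Its log2 fold change was 1.21 ± 0.33 (SE, edgeR adjusted p = 0.0977). Of the subunits of that complex Anapc10 had a log2 fold change of 1.11 ± 0.35 and Anapc1 of -1.22 ± 0.42 (SE), each without overlap between the groups. Of all genes tested 14.1% were higher and 14.4% lower without overlap. Hspa2, the chaperone that spermatocytes need to assemble cyclin B with CDK1, was the most abundant gene of the list, at 1467 ± 396 CPM in circSry KO and 1902 ± 270.2 CPM in WT (SD, n = 3 each; edgeR adjusted p = 0.505). Eif4g3, a translation factor required for Hspa2 protein in mouse spermatocytes, had a log2 fold change of -0.68 ± 0.35 (SE). Skp2, a ubiquitin ligase subunit that destroys CDK inhibitors, was picked out after its values were seen. It stood at 110, 126 and 13.9 CPM in circSry KO replicates 1, 2 and 3 and at 19.6, 20.9 and 22.9 CPM in WT. The macrophage markers and the endothelial and peritubular markers above were high in the same 2 libraries. The part of either in the level of Skp2 was not tested.

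Among the 8 CDK inhibitor genes 2 were higher and 1 was lower by that p, with a median of 0.76. The log2 fold change was positive for 5 and negative for 3 (Cdkn2a, Cdkn2c and Cdkn2d). Among the positive ones Cdkn1a, Cdkn1b and Cdkn2b had low group means, from 1.62 to 4.10 CPM. For this list, the other cyclins and the other CDKs the same shares of all genes apply, 13.6% higher and 9.84% lower. Without circSry KO replicate 3 edgeR called 2 inhibitor genes higher and 2 lower, 2 other cyclins higher and 3 lower, and 3 other CDKs higher and 5 lower, beside 18.5% and 16.2% of all genes. Cdkn3, a phosphatase of CDKs, stood at 174 ± 42.6 CPM in circSry KO and 80.1 ± 23.2 CPM in WT (SD, n = 3 each). Its log2 fold change was 1.13 ± 0.35 (SE, edgeR adjusted p = 0.121). Cdkn1c had a log2 fold change of 1.39 ± 0.50 and Cdkn2c, an inhibitor of CDK4 and CDK6 and the most abundant of the list, -0.73 ± 0.31 (SE). In each the groups did not overlap, beside 14.1% of all genes tested higher and 14.4% lower without overlap. Of 20 other cyclins 1 was higher (Ccno) and 0 lower, with a median of -0.11. Ccnd3 had a log2 fold change of 0.81 ± 0.38, Ccnt2 of -0.67 ± 0.41, and the abundant Ccnk and Ccni of 0.11 ± 0.29 and -0.44 ± 0.27 (SE). Of 22 other CDK genes 1 was higher (Cdk5) and 2 lower (Cdkl4 and Cdk12), with a median of -0.11. Cdkl4 stood at 28.05, 30.03 and 57.7 CPM in circSry KO, against 72.2, 87.5 and 89.0 CPM in WT, a log2 fold change of -1.10 ± 0.37 (SE), and the most abundant, Cdkl3 and Cdkl2, had 0.62 ± 0.35 and -0.43 ± 0.32 (SE). In these 4 lists edgeR passed 0 genes after adjustment and DESeq2 called 2, both higher and both of the activation and turnover list. DESeq2 called 5.10% of all genes higher and 3.70% lower.

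**Figure D5:**
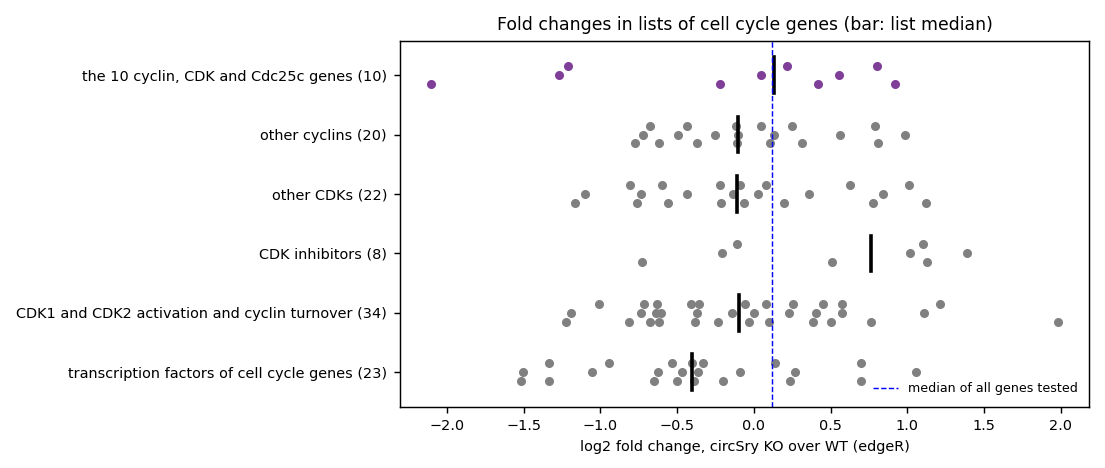
Log2 fold change, circSry KO over WT (x axis, edgeR), of the 10 genes and of each tested gene in 5 lists of other cell cycle genes, with the list median as a bar and the median of all genes tested, 0.12, as a dashed line. CDK inhibitors have a median of 0.76, with 5 genes positive and 3 negative, and transcription factors of cell cycle genes one of -0.41.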

How the data were processed

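Spermatocyte RNA went into TruSeq libraries, as the labels' protocols say. Per the file headers, the authors deposited TPM, FPKM and RSEM's estimated (expected) counts for each gene. Tools and builds in the submitters' processing notes, with no role given, are RSEM 1.3.2, STAR 2.7.0f, edgeR 3.28.1, mm9 and GRCm39. The kit does not mark strand, so reads of Ccna1, Ccna2, Ccne2, Cdk2 and Cdc25c cannot be told from those of genes annotated on the opposite strand. Estimated counts of the 10 genes were whole to within 0.005 in all libraries, except Ccnb1 in 2 of the 6.

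Estimated counts, deposited without normalization, were rounded. The genotype term was then tested by the quasi-likelihood F test (R 4.3.3, edgeR 4.0.16) after filterByExpr and TMM scaling, with Benjamini-Hochberg adjustment over all genes and a threshold of 0.05. The SE is the log2 fold change over the square root of F. CPM are TMM-scaled. TPM and FPKM as deposited by the authors served for levels between genes, ratios (pseudocount 0.1) and effective lengths. DESeq2 1.42.0 and limma 3.58.1 were alternatives, with other factors, filters, a replicate block, length offsets (lowess span 0.3) and each library left out in turn. Steps were tested on simulated counts with dispersions taken from the WT libraries. The simulation held no length trend and no library that stood apart, so it does not cover these features of the data. Positions came from GENCODE M21 (GRCm38), which may differ from the build counted on.

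The 10 genes, the lists and the tests were chosen with earlier results of these data known. The rule for named genes took all 10, then from each list the 3 tested genes with the smallest p and the 2 with the highest mean, and the 2 genes with the pattern most like each of the 10. Lin54, of the transcription factor list, was not analysed here. The genes nearest in pattern to Ccna2 are not reported here.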

Additional observations from a re-analysis of the deposited data

How the results depend on the processing

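With edgeR 0 genes were higher and 0 lower past the adjusted threshold, and this count stayed at 0 with RLE or upper-quartile factors, a filter of 1 CPM in 3 libraries, limma-voom, robust dispersions and length offsets. Without a filter on low counts it was 548 higher and 321 lower in circSry KO, with DESeq2 942 and 683, with limma on log2(TPM + 1) 4 and 2, and on log2(TPM + 0.1) 4 and 3. With each library left out in turn it ran from 0 to 3319 higher and from 0 to 2909 lower, the highest without circSry KO replicate 3 and 0 without any other library. Among the 10 genes Ccnb3 passed with DESeq2 at a log2 fold change of -2.14. Leaving out 1 library gave log2 fold changes of 0.69 to 1.03 for Ccnb1, -3.07 to -1.64 for Ccnb3, -2.26 to -0.80 for Ccne2, -1.84 to -1.05 for Cdk2, 0.57 to 1.13 for Cdc25c, -0.48 to 0.57 for Cdk1 and -0.15 to 0.17 for Ccna2. Signs turned on the TPM scales (pseudocounts 1 and 0.1) for Ccna1 (-0.068 and -0.069), Ccna2 (-0.34 and -0.37), Ccnb2 (-0.024 on both) and Cdk1 (-0.71 and -0.72), and for Cdk1 also with limma-voom (-0.013) and length offsets (-0.38). The same scales moved the median of the 10 to -0.49 and -0.54, of other cyclins to -0.51 and -0.57, of other CDKs to -0.37 and -0.43, of CDK inhibitors to 0.22 and 0.27 and of activation and turnover genes to -0.60 and -0.64, and the smaller pseudocount moved that of transcription factors to -0.79. On these scales the median of all genes was -0.25 and -0.34. Length offsets moved the median of CDK inhibitors to 0.41. Leaving out 1 library gave medians of -0.32 to 0.36 for the 10, -0.13 to -0.0080 for other cyclins, -0.23 to -0.051 for other CDKs, 0.31 to 0.74 for CDK inhibitors, -0.42 to -0.0066 for activation and turnover genes and -0.51 to -0.25 for transcription factors. The cause of these changes was not tested. No ratio and no effective length of Ccna1, Ccnb1 or Cdk1 changed its sign. Deviations from the group mean correlated at 0.02, 0.32 and -0.26 between libraries of the same replicate number, for numbers 1, 2 and 3. Libraries of different numbers were not compared in this way, so whether the numbers pair samples stayed unsettled. With the replicate block 0 genes passed in either direction. Depth limits Ccnb3 most, at 9 estimated reads in each of 2 circSry KO libraries.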
